A study of Mus musculus with 17 samples.

Results

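Sbno2, a gene of the strawberry notch family, was followed with 7 genes of the interleukin 10 (IL-10) and STAT3 axis in cells isolated from lung tumors of mice. The 8 genes are Sbno2, Stat3, Socs3, Bcl3, Il10, Il10ra, Il10rb and Il6ra, out of 17555 genes listed in at least 1 of 3 tables. They were found by gene name, and they had been selected on their values in KL and KLG4 cells with earlier results of these data known. The differences between KLG4 and KL cells are therefore given for these 8 genes as a description, with no test. All 8 were listed for tumor cells and MDMs and 7 for TRMs, where Il10 had no row. Each listed gene passed the filter of at least 1 RPKM (a read count scaled by gene length and by the counted reads of the library) in at least 2 of the 4 libraries of its table, in tumor cells through the KLG4 libraries alone for Il10 and Il6ra.

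Bulk RNA sequencing was done on tumor cells, TRMs and MDMs, as the labels abbreviate the populations, with 2 libraries for each of 6 groups. KL mice carried KrasLSL-G12D/+Lkb1fl/fl alleles (Lkb1 is the gene Stk11), and KLG4 mice carried Gpx4m/m in addition. In the modified Gpx4 allele, Cre switches on a CAG-driven DreERT2 recombinase inserted in the Gpx4 locus. Tamoxifen then lets this recombinase remove rox-flanked Gpx4 exons. The paper reports this removal selectively in sorted tumor cells, with GPX4 protein lower there and not in CD45+ immune cells. Mice of both genotypes received Ad-Cre through the nose and tamoxifen, and cells were sorted from tumor-bearing lungs at 10 weeks after Ad-Cre. The study describes 2 mice per group for the tumor cells. Each tumor cell library, however, held both the female-expressed Xist (4.17 to 6.18 RPKM) and the Y-linked Eif2s3y (7.27 to 9.26). Whether a tumor cell library came from a single mouse is therefore unclear. For TRMs and MDMs the sources used here do not say whether the libraries came from separate mice. In all 3 populations p-values measure the spread between these libraries, which may be technical. The 2 KLG4 tumor cell libraries were the closest pair, with a chi-square of 3.28 per gene between them, where the other pairs of replicates had 28.9 to 132, and their small spread enters all tumor cell p-values.

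IL-10 binds a receptor made of Il10ra and Il10rb, and Janus kinases at this receptor phosphorylate STAT3, which enters the nucleus and switches on genes that restrain inflammation. Interleukin 6 (IL-6) reaches STAT3 through Il6ra and the shared chain Il6st, and Socs3, a target of STAT3, blocks the IL-6 route but not the IL-10 route. Sbno2 and Bcl3, an atypical IκB protein, are known in macrophages as IL-10-induced genes that act on transcription downstream of STAT3.

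Libraries differed in ways that touch all values below. Counted reads ranged from 9.14 to 36.6 megareads a library. Gpx4, the targeted gene, was at 56.4 and 61.9 RPKM in KLG4 tumor cells against 95.0 and 76.8 in KL tumor cells, counted over all exons. KLG4 tumor cell libraries carried more RNA of other cell types. The summed level of 5 leukocyte markers was 113 and 116 RPKM in KLG4 against 11.9 and 13.3 in KL, and that of the 6 listed neutrophil markers was 2290.3 and 2191 against 181 and 274. Fibroblast markers summed to 355 and 353 RPKM against 10.3 and 15.6, B and plasma cell markers to 117 and 126 against 0.581 and 1.38, and T cell markers to 46.4 and 54.2 against 1.96 and 3.23. The macrophage (854 and 889 against 228 and 287), alveolar macrophage (384 and 393 against 47.0 and 65.4) and monocyte-derived macrophage lists (109.9 and 108 against 6.24 and 9.65) were higher as well. The epithelial list was lower, at 3577 and 3586 against 8338 and 6197. The 8 alveolar macrophage markers summed to 8286 to 12707 RPKM in TRMs and to 1258 to 2289 in MDMs. In TRMs, mitochondrial genes took 2.95% and 5.78% of reads in KLG4 against 31.5% and 22.3% in KL. The median TRM gene had a log2 fold change of 0.38, and Xist was at 18.3 and 20.2 RPKM against 0.257 and 0.501. Genotype, sex and mitochondrial share cannot be told apart in TRMs. Alveolar type 2 cell markers summed to less in KLG4, at 27.3 and 60.4 against 166 and 177 RPKM in TRMs and 35.8 and 68.2 against 154 and 374 in MDMs, and epithelial markers at 65.8 and 105.1 against 127 and 145 and at 18.4 and 58.9 against 72.1 and 255. In the MDM libraries the 7 macrophage markers summed to 1220 to 2815 RPKM and the 7 neutrophil markers to 10673 to 23317. Within the macrophage list, Csf1r was at 24.3 to 41.2 RPKM and Fcgr1 at 1.86 to 7.33. S100a9 was the highest gene in 3 of the 4 MDM libraries (16080 to 21106 RPKM) and at 9379 RPKM in KL replicate 2. MDM KL replicate 2 stood apart, with Xist at 0.839 RPKM and C1qa at 92.7 where the other MDM libraries had 19.4 to 21.8 and 16.0 to 24.4. In bulk RNA, fewer cells of a type and less RNA per cell cannot be told apart.

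Promoter sequences of the genes on which the description turns were taken from RefSeq, GRCm38.p6, as windows of 250 bases before to 50 bases after a start site. Of the 8 genes, 5 had an entry, with 7 windows in all, 3 of them for Sbno2. Windows were searched for TTCNNNGAA, the core letters of a STAT site, which reads the same on both strands, and for the stricter TTCCNGGAA, which lies within it. TTCNNNGAA was found in 3 of the 7 windows and in 8.30% of 32851 promoter windows of the same length, and TTCCNGGAA in 1.15%. The 3 windows with a match are shown because they belong to Sbno2 and Socs3, with the matched letters in capitals.
Sbno2, start site 1, minus strand, chr10:80102653-80102952: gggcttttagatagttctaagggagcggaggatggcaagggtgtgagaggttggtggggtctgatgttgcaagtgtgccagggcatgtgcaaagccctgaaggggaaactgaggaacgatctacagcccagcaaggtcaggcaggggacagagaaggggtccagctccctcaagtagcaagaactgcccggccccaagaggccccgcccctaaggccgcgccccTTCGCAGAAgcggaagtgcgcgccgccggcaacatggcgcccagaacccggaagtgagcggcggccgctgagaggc
Sbno2, start site 2, minus strand, chr10:80101138-80101437: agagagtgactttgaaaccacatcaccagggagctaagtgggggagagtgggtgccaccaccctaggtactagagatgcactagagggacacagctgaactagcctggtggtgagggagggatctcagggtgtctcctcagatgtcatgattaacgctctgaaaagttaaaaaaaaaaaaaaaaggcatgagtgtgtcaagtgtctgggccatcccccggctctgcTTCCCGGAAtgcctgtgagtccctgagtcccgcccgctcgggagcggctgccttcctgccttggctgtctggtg
Socs3, minus strand, chr11:117969317-117969616: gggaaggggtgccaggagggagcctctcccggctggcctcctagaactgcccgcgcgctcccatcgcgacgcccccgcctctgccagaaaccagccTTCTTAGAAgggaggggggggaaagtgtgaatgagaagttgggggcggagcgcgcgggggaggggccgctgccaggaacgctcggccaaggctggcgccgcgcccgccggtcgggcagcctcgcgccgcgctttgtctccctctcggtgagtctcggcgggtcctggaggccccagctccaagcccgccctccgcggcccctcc
The match began 26 bases before the Sbno2 start site 1 and 24 bases before start site 2, where it also met the stricter form. In Socs3 it began 154 bases before the start site. The window of the remaining Sbno2 start site and those of Stat3, Bcl3 and Il6ra had no match, which says only that these letters are not in these windows. A match is a run of letters and no evidence of binding in these cells.

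Sbno2 was several-fold higher in KLG4 than in KL cells of all 3 populations. The gene lies on the minus strand at chr10:80056992-80105571 (GRCm38, GENCODE), and the tumor cell table counted 4227 exonic bases of a shorter model, from 80057416 to 80102698. In tumor cells, the KLG4 libraries had Sbno2 levels of 109 and 112 RPKM and the KL libraries levels of 14.5 and 17.8. In TRMs, the levels were 54.5 and 52.2 RPKM (KLG4) and 8.12 and 13.8 (KL). MDMs had the highest levels, 347 and 333 RPKM with the KLG4 genotype and 69.3 and 67.8 with KL. The genotypes did not overlap in any population, and the values rested on 343 to 38245 reads a library. The log2 fold change was 2.78 ± 0.14 (standard error, 2 against 2 libraries) in tumor cells, 2.32 ± 0.28 in TRMs and 2.31 ± 0.18 in MDMs. Against the median of all genes of each table, these were 2.87, 1.94 and 2.29. The ratio of means was 6.85-fold, 4.86-fold and 4.96-fold.

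**Figure D1:**
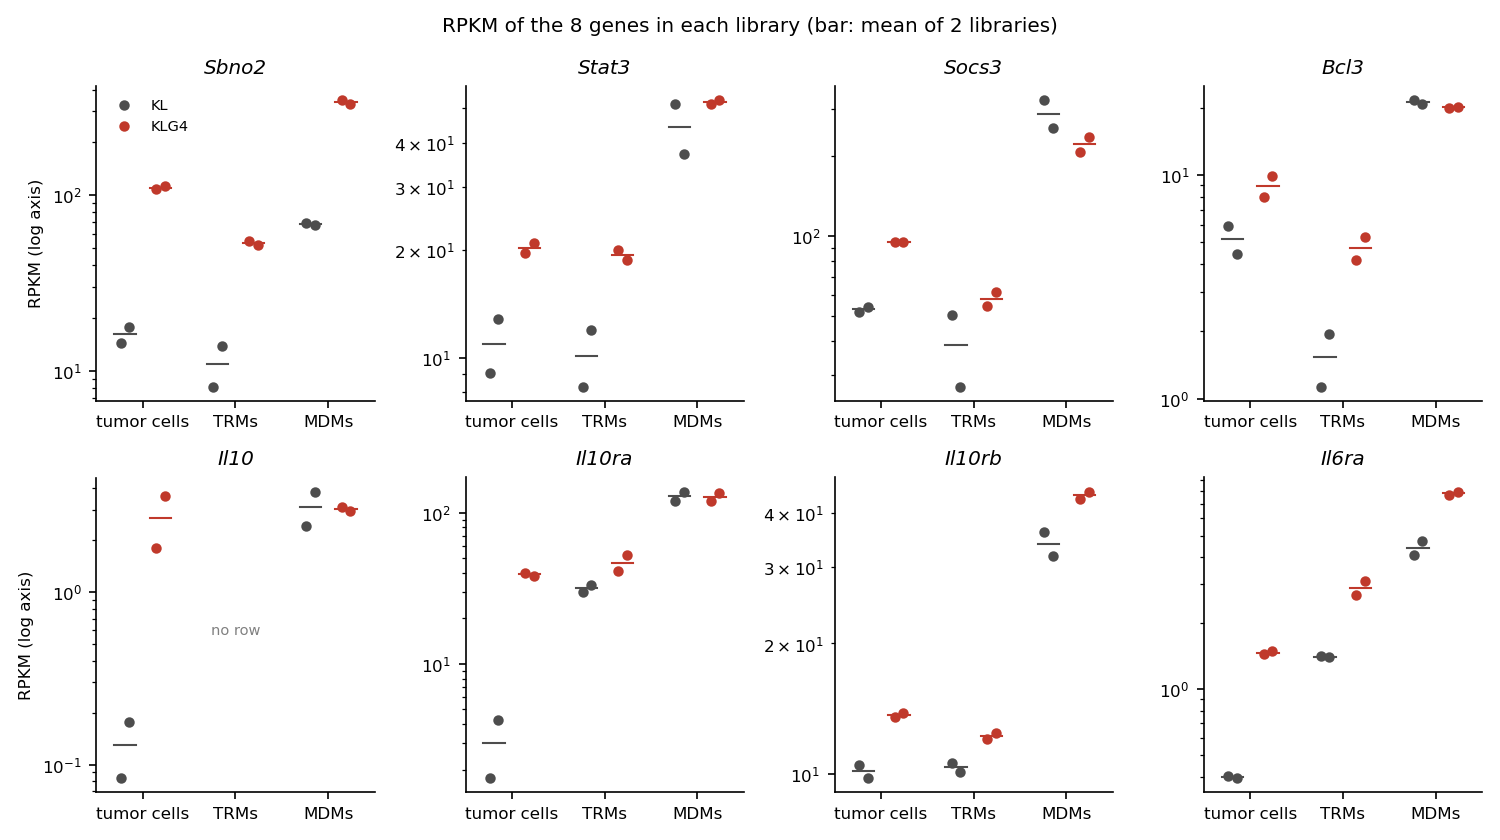
RPKM (log axis, scaled separately in each panel) of the 8 genes in each of the 12 libraries, with KL in gray, KLG4 in red and a bar at the mean of 2 libraries. Sbno2 was higher in KLG4 in all 3 populations, whereas Il10, Il10ra and Stat3 overlapped between genotypes in MDMs, and Il10 had no row in TRMs.

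By group mean, Sbno2 fell in the order MDM KLG4 (340 ± 10 RPKM, SD), tumor cell KLG4 (110.5 ± 2.6), MDM KL (68.6 ± 1.0), TRM KLG4 (53.3 ± 1.6), tumor cell KL (16.1 ± 2.4) and TRM KL (11.0 ± 4.1). The tables were scaled separately, so levels across populations are side by side only. Groups next to each other in this order did not overlap, and the nearest were the KL libraries of tumor cells and TRMs, at 14.5 and 13.8 RPKM. Sbno2 ranked above 98.7% of listed genes in both KLG4 MDM libraries and above 72.4% to 82.9% in the KL libraries of tumor cells and TRMs.

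Sbno1, the other strawberry notch gene of the mouse, had smaller differences. Its RPKM values were 8.10 and 8.75 in KLG4 tumor cells with 5.71 and 8.46 in the KL libraries, which overlapped. They were 10.7 and 10.1 with 5.62 and 7.17 in TRMs and 49.7 and 50.4 with 44.6 and 30.8 in MDMs, where the genotypes did not overlap. The log2 fold change of Sbno1 was 0.27 in tumor cells (limma, adjusted p = 0.364), 0.71 in TRMs (0.118) and 0.43 in MDMs (0.679), none of which passed the test. A ratio within a library is free of the scaling between libraries. Sbno2 over Sbno1 was 13.4 and 12.8 in KLG4 tumor cells against 2.53 and 2.11 in KL, 5.09 and 5.15 against 1.44 and 1.93 in TRMs, and 6.98 and 6.60 against 1.55 and 2.20 in MDMs. Sbno2 over Stat3 was likewise higher in all KLG4 libraries, at 2.72 to 6.75 against 0.979 to 1.83. Over Ptprc, which encodes the leukocyte antigen CD45, Sbno2 went the other way in tumor cells, at 4.06 and 4.11 in KLG4 and 17.3 and 8.63 in KL. In TRMs (0.731 and 0.704 with 0.261 and 0.327) and MDMs (3.16 and 3.12 with 0.670 and 0.725) this ratio was higher in KLG4. The part of leukocyte RNA in the tumor cell values of Sbno2 was not tested.

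**Figure D2:**
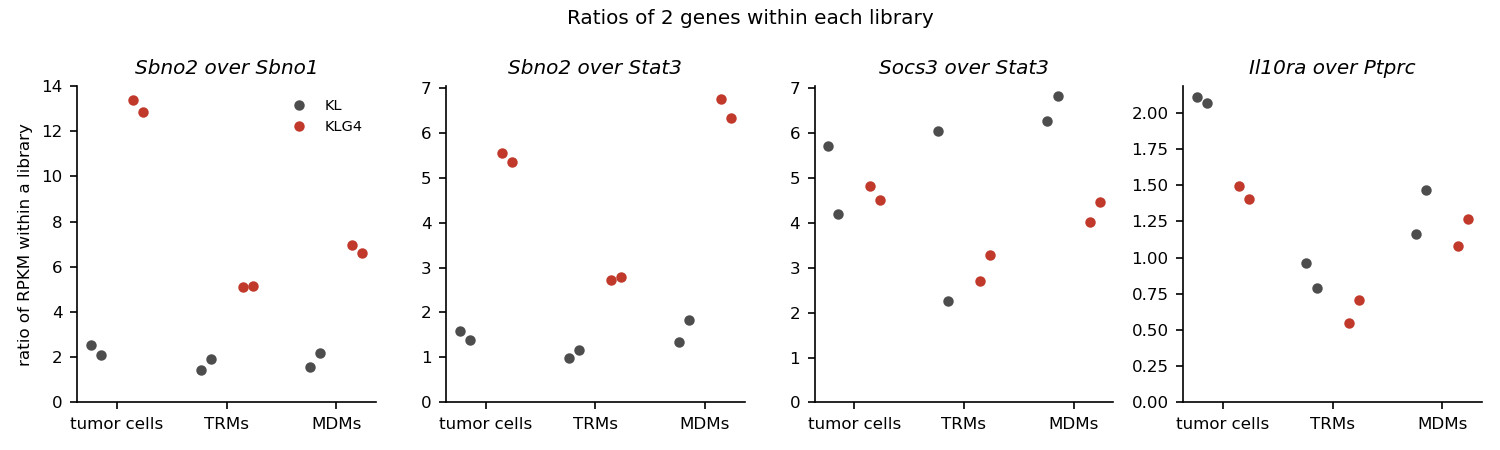
Ratios of RPKM of 2 genes within each library, by population, with KL in gray and KLG4 in red. Sbno2 over Sbno1 and over Stat3 were higher in KLG4 in all 3 populations, Socs3 over Stat3 overlapped in tumor cells and TRMs, and Il10ra over Ptprc was lower in KLG4 in tumor cells and TRMs.

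The ligand Il10 (chr1:131019845-131024974, plus strand) was a low-level gene in tumor cells and MDMs. Tumor cells had 1.82 and 3.60 RPKM with the KLG4 genotype and 0.0834 and 0.177 with KL, on 42 and 75 reads against 4 and 7. The genotypes did not overlap. The log2 fold change was 3.56 ± 0.41 with a pseudocount of 0.1 and 1.67 with a pseudocount of 1, so its size rests on few reads. MDMs had 3.10 and 2.96 RPKM of Il10 (KLG4) and 2.43 and 3.83 (KL), and the genotypes overlapped.

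Among the receptor genes of the 8, Il10ra (chr9:45253837-45269149, minus strand), the ligand-binding chain of the IL-10 receptor, differed most, and this was in tumor cells. The KLG4 libraries had 39.9 and 38.4 RPKM and the KL libraries 1.76 and 4.26, a log2 difference of 3.79 ± 0.40. Il10ra is a gene of blood cells, and Ptprc moved with it, at 26.7 and 27.4 against 0.834 and 2.06 RPKM. Il10ra over Ptprc was 1.49 and 1.41 in KLG4 and 2.11 and 2.07 in KL tumor cells, so per unit of Ptprc it was lower in KLG4. The part of leukocyte RNA in the Il10 and Il10ra values was not tested further. TRMs had 40.9 and 52.3 RPKM of Il10ra with the KLG4 genotype and 30.02 and 33.3 with KL, a log2 difference of 0.55 that shrank to 0.16 against the median of all genes. MDMs had 119 and 135 RPKM (KLG4) and 120.1 and 137 (KL), so the genotypes overlapped.

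Il10rb (chr16:91406164-91425834, plus strand), the signaling chain that IL-10 shares with other cytokines of its family, differed little. Tumor cells had 13.5 and 13.9 RPKM (KLG4) and 10.5 and 9.79 (KL), and MDMs had 43.0 and 44.7 (KLG4) and 36.1 and 31.8 (KL). The genotypes did not overlap in either. TRMs had 12.1 and 12.4 RPKM with the KLG4 genotype and 10.6 and 10.1 with KL, a log2 difference of 0.23 that lay below the median of all genes by 0.15 and turned to -0.15 with quantile scaling. Il10rb overlaps another annotated gene, Gm21970, on the same strand.

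Il6ra (chr3:89864059-89913196, minus strand), the ligand-binding chain for IL-6, was higher in KLG4 than in KL libraries of each population without overlap. Its RPKM values in KLG4 were 1.44 and 1.49 in tumor cells (0.404 and 0.394 in KL) and 2.68 and 3.11 in TRMs (1.41 and 1.41). In MDMs they were 7.66 and 7.91 (4.06 and 4.74 in KL). The log2 fold changes were 1.65 ± 0.23, 0.99 ± 0.31 and 0.81 ± 0.22, and with a pseudocount of 1 that in tumor cells was 0.82. Against the median of all genes that in TRMs was 0.61. Beside Sbno2 and Il10rb, Il6ra was the gene of the 8 with both KLG4 libraries above both KL libraries in MDMs. Its partner Il6st (gp130), which carries the signal of the IL-6 family, rose in tumor cells (12.2 and 12.5 against 6.34 and 9.03 RPKM, log2 fold change 0.70 ± 0.20, adjusted p = 0.0421). In TRMs Il6st had a log2 fold change of 1.04 (adjusted p = 0.0841), and in MDMs one of -0.73 (adjusted p = 0.701).

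Stat3 (chr11:100885098-100939540, minus strand), the transcription factor of the axis, was moderately higher in KLG4 tumor cells and TRMs. Tumor cells had 19.6 and 21.0 RPKM of Stat3 (KLG4) and 9.05 and 12.8 (KL), a log2 difference of 0.91 ± 0.20. TRMs had 20.04 and 18.8 RPKM (KLG4) and 8.29 and 11.9 (KL), a log2 difference of 0.96 ± 0.24, or 0.57 against the median of all genes. Neither population had overlapping genotypes. In MDMs they overlapped, with 51.4 and 52.6 RPKM (KLG4) and 51.5 and 37.1 (KL), where the lower value was KL replicate 2. Without that library the log2 fold change was 0.01. The end of Stat3 overlaps Stat5a on the other strand, and counting without strand cannot tell their reads apart there.

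Socs3 (chr11:117966079-117970047, minus strand), the inhibitor that STAT3 induces, differed in direction between populations. Tumor cells had 94.6 and 94.7 RPKM (KLG4) and 51.7 and 54.0 (KL), a log2 difference of 0.84 ± 0.11. TRMs had 54.3 and 61.5 RPKM (KLG4) and 50.2 and 27.0 (KL), so the genotypes nearly met. In MDMs Socs3 was lower in KLG4, at 207 and 235 RPKM against 323 and 253 RPKM, a log2 fold change of -0.37 ± 0.22. Per unit of Stat3, Socs3 was 4.03 and 4.47 in KLG4 and 6.28 and 6.83 in KL MDMs, and overlapped between genotypes in tumor cells and TRMs.

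Bcl3 (chr7:19808462-19822770, minus strand), the partner of NF-κB p50 and p52 dimers, was higher in KLG4 TRMs and tumor cells and not in MDMs. TRMs had 4.15 and 5.29 RPKM (KLG4) and 1.13 and 1.94 (KL, on 28 and 44 reads), a log2 difference of 1.59 ± 0.36. Tumor cells had 7.99 and 9.92 RPKM (KLG4) and 5.93 and 4.45 (KL), a log2 difference of 0.78 ± 0.21. MDMs had 19.9 and 20.2 RPKM (KLG4) and 21.6 and 20.8 (KL), a log2 difference of -0.08. Annotated antisense genes overlap Bcl3 and Il6ra, and their reads cannot be told apart without strand.

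Counted together, both KLG4 libraries were above both KL libraries for 8 of 8 genes in tumor cells, where 32.5% of the 13770 genes tested did the same, and for 7 of 7 in TRMs, where 53.7% of the 10990 genes tested did and 8.95% did the opposite. In MDMs, 3 of 8 were above (25.4% of the 10475 genes tested), 2 were below (19.1%) and 3 overlapped. These counts use the values by which the genes had been chosen, and nothing is read from them. In MDMs the log2 fold changes of the 7 genes other than Sbno2 lay between -0.37 and 0.81, while that of Sbno2 was 2.31.

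For 8975 genes tested in all 3 tables, the smallest of the 3 log2 fold changes was taken. Sbno2 took rank 3, with a smallest change of 2.31 in MDMs. Ccl24, an eosinophil-attracting chemokine, took rank 1 at 2.43, and Gm15726, annotated as an antisense transcript, rank 2 at 2.34. Gm21857 (1.69) and Fmnl2, a formin of the actin cytoskeleton (1.44), followed. Only 19 genes exceeded 1, and 22.3% exceeded 0. Il6ra was at 0.81, rank 43, and Stat3 at 0.25, rank 768. Sbno2 took rank 2 or 3 when each library was left out in turn. Sbno2 and the other genes of the axis had been chosen on these same values. Their ranks describe that choice, and nothing is read from them.

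**Figure D3:**
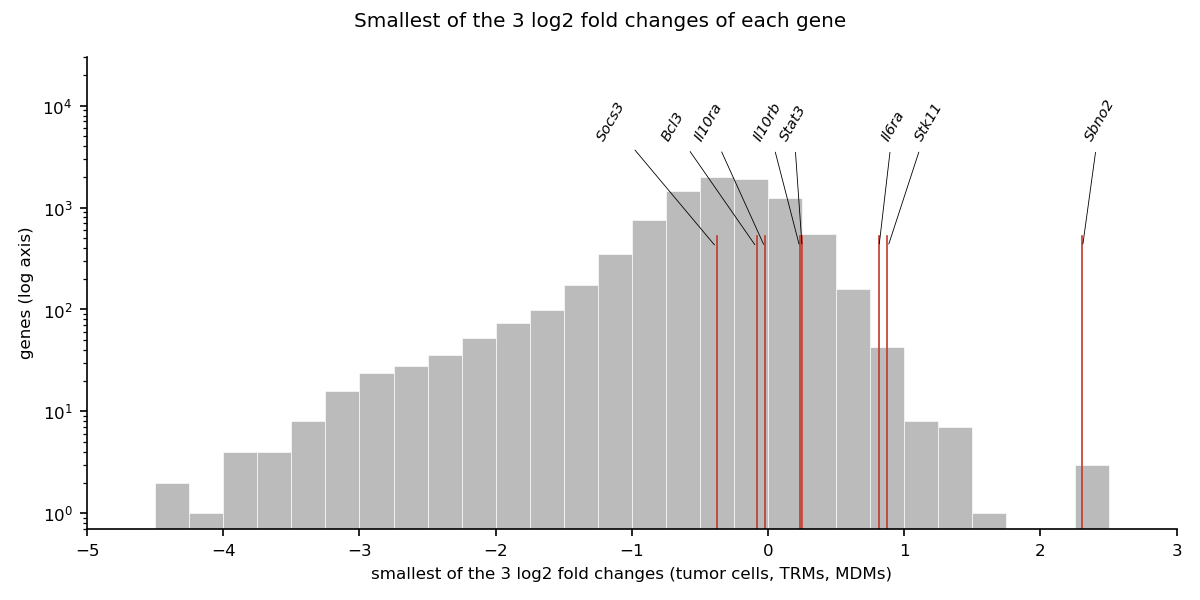
Number of genes (log axis) by the smallest of their 3 log2 fold changes, over 8975 genes tested in tumor cells, TRMs and MDMs, with red lines at Sbno2, the other genes of the axis with values in all tables, and Stk11. Sbno2 lies at 2.31, in the rightmost bin of 3 genes, and the other marked genes lie at or below 0.88. The genes of the axis had been chosen on these values.

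Other genes of the pathway came from 8 lists of 96 genes in all, also compiled with earlier results known. In tumor cells, 80 were tested, of which 46 rose and 8 fell (adjusted p under 0.05 over all genes, limma), beside 20.6% and 19.6% of all genes. Of all genes, 2843 rose and 2700 fell, a split that became 2585 and 4130 with quantile scaling and 3235 and 1970 with limma-voom on recovered reads. Without KLG4 replicate 1 it was 1592 and 398, and without KLG4 replicate 2 it was 1552 and 375. The median log2 fold change was 0.75 over the lists and -0.09 over all genes. Of the 46 genes that rose, 8 were under 1 RPKM in both KL libraries and entered the test only through the KLG4 libraries where they are high (Fgl2, Il12a, Il12b, Mitf, Saa3, Socs1, Stat4 and Stat5a), and Il22ra1 entered only through KL. Without KLG4 replicate 1 or 2 the calls among the listed genes were 31 and 30.

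Ligands were split in tumor cells. Osm, which encodes oncostatin M, rose from 1.57 and 2.88 RPKM in KL to 38.8 and 34.0 in KLG4 (log2 fold change 4.03 ± 0.29, adjusted p = 0.000554), and Il6 from 7.24 and 6.06 to 35.5 and 34.7 RPKM (2.39 ± 0.14, adjusted p = 0.000364). Clcf1, another cytokine of the IL-6 family, fell from 6.14 and 4.69 to 2.43 and 2.69 RPKM (-1.04 ± 0.20, adjusted p = 0.0122). The Clcf1 call was lost without KLG4 replicate 1 (adjusted p = 0.13) or 2 (0.103). Lif and Il24 fell by less than 1 on the log2 scale. Of all genes, 20.6% rose and 19.6% fell, and of 7 receptors tested 3 rose and 1 fell. The latter was Il22ra1, an epithelial receptor chain for IL-22 (log2 fold change -1.40). That call was lost with limma-voom (adjusted p = 0.0609) and without KLG4 replicate 1 (0.187), KLG4 replicate 2 (0.126) or KL replicate 2 (0.0592). Csf3r, the neutrophil receptor for G-CSF, had the largest rise (36.7 and 38.0 against 1.07 and 3.56 RPKM, 4.17 ± 0.52, adjusted p = 0.00272), and Il11ra1 rose by 1.54. Csf3r was at 208 to 323 RPKM in the MDM libraries.

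Kinases and STAT genes rose in 5 of 10 cases in tumor cells and fell in none, where 20.6% of all genes rose and 19.6% fell. Jak2, a kinase of the IL-6 family receptors, rose from 22.9 and 24.0 to 87.9 and 88.4 RPKM (log2 fold change 1.90 ± 0.11, adjusted p = 0.000329). Stat4 (3.89), Stat5a (2.92) and Stat5b (1.57) also rose. With a pseudocount of 1, Stat5a was at 1.46 and Stat4 at 2.62, still past the threshold. Without KLG4 replicate 1 or 2 the Stat5b call was lost (adjusted p = 0.0787 and 0.0789), and reads of Stat5a and Stat5b may be split uncertainly because the genes are close copies. Among 13 inhibitors, 3 rose and 2 fell, near the shares of all genes (20.6% and 19.6%). Of these inhibitors Socs1 (2.08, or 1.02 with a pseudocount of 1) was past 1.

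IL-10 and STAT3 targets rose in 14 of 22 cases and fell in 2, where 20.6% of all genes rose and 19.6% fell. Fgl2 (4.22), the IL-1 receptor antagonist Il1rn (3.58), the acute-phase gene Saa3 (2.62, or 1.60 with a pseudocount of 1) and the AP-1 factor Batf (2.57) had the largest rises. All 11 tested genes of a list that IL-10 is known to repress in macrophages rose as well, with a median of 3.36. They are cytokines, chemokines and the prostaglandin enzyme gene Ptgs2, and Il12b (4.89), Il1b (4.22), Ccl4 (4.16) and Il12a (3.46) led. Il12a rested on 0.0321 and 0.0194 RPKM in KL and had a log2 fold change of 1.15 with a pseudocount of 1, and the Ccl4 call was lost without KLG4 replicate 1 (limma, adjusted p = 0.0533) or 2 (0.0574). Of 9 NF-κB genes listed as partners of Bcl3, 7 rose, led by Rel (2.54), Nfkbiz (1.93), Nfkb1 (1.79) and Nfkbie (1.59). Mitf, a factor of macrophages and osteoclasts, rose by 1.62, on 1.13 and 1.07 against 0.198 and 0.416 RPKM. The Mitf call was lost with quantile scaling (0.27, adjusted p = 0.461) and without KLG4 replicate 1 (adjusted p = 0.095) or 2 (0.0892). The leukocyte, neutrophil, macrophage, fibroblast, B and plasma cell and T cell lists moved with these counts as given above, and their part was not tested.

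**Figure D4:**
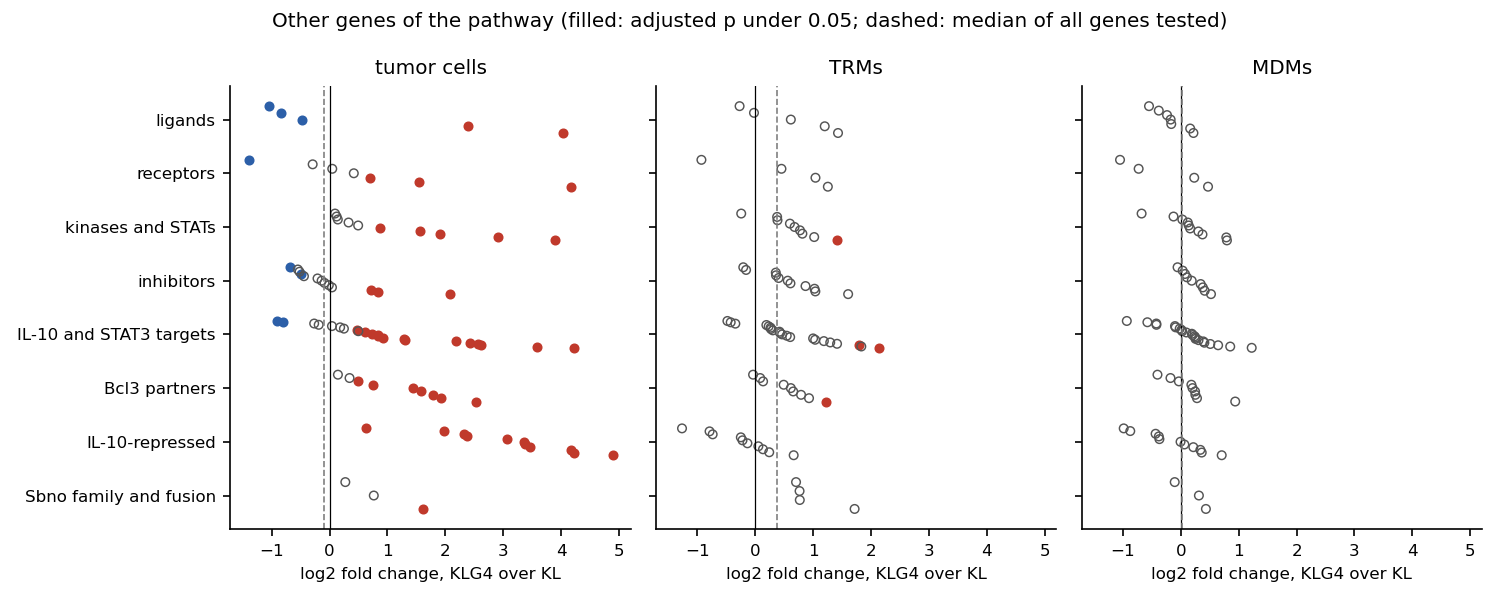
Log2 fold change (KLG4 over KL) of each tested gene of the 8 pathway lists in tumor cells, TRMs and MDMs. Filled points passed an adjusted p under 0.05 (red higher, blue lower), the dashed line is the median of all genes tested, and no point is filled in MDMs.

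TRMs gave few calls. Of 73 listed genes tested, 4 rose and none fell, where 1.36% of all genes rose and 0.437% fell, and 30 had an unadjusted p under 0.05, as did 3111 of the 10990 genes. The 4 were Jak2 (32.5 and 46.9 against 14.5 and 14.7 RPKM, log2 fold change 1.41, adjusted p = 0.0485), Cebpb (55.0 and 67.6 against 13.7 and 22.4 RPKM, 1.79, adjusted p = 0.0475), Nfkb1 (18.6 and 16.4 against 7.35 and 7.51 RPKM, 1.22, adjusted p = 0.0475) and Lrg1 (4.04 and 6.49 against 1.04 and 1.13 RPKM, 2.14, adjusted p = 0.0499). Cebpb is a factor of macrophage activation, and Lrg1 encodes a secreted glycoprotein. Over the settings that kept every library, the log2 fold change was 1.00 to 1.42 for Jak2 and 1.38 to 1.80 for Cebpb. It was 0.83 to 1.23 for Nfkb1 and 1.56 to 2.23 for Lrg1. All 4 calls were lost without KL replicate 1 or when values were rescaled to reads outside mitochondrial genes, and 2 or 1 were left without KLG4 replicate 1 or 2, while 25 genes were called without KL replicate 2. The median over the lists was 0.55 against 0.38 over all genes, and the split of all calls, 150 higher and 48 lower, became 8 and 23 with that rescaling. The list repressed by IL-10, which rose throughout in tumor cells, had a median of -0.18 in TRMs and no call.

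MDMs gave no call among 75 listed genes or all 10475 genes (limma, and 0 with limma-voom as well). An unadjusted p under 0.05 was reached by 706 genes, with Il11ra1 (3.30 and 3.04 against 6.98 and 6.38 RPKM, log2 fold change -1.05) and Nfkb1 (58.5 and 61.2 against 39.6 and 24.5 RPKM, 0.94) the listed ones. The median over the lists was 0.16 against 0.02 over all genes. Leaving out KL replicate 1 gave 2682 calls over all genes, 20 of them in the lists. Among genes tied to Sbno2 by family or by cell fusion, Mitf was at 4.40 and 5.05 against 3.31 and 4.31 RPKM in MDMs, and Dcstamp, a membrane protein of macrophage fusion, was tested in TRMs alone (8.75 and 12.4 against 2.21 and 4.34 RPKM, log2 fold change 1.72, adjusted p = 0.0691).

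Sbno2 lies next to the modified gene. Gpx4 ends 553 bases from the end of Sbno2 on the opposite strand in GENCODE and 977 bases from it in the gene model of the tumor cell table. Stk11, the floxed gene of both genotypes, starts 10232 bases beyond the start of Sbno2. In tumor cells Stk11 rose from 25.9 and 25.8 RPKM to 61.6 and 61.6 (limma, log2 fold change 1.25 ± 0.11, adjusted p = 0.0009). TRMs had 42.5 and 40.0 RPKM of Stk11 (KLG4) and 21.5 and 23.3 (KL), with an adjusted p of 0.0591, and MDMs 203 and 177 (KLG4) and 62.3 and 72.6 (KL), with an adjusted p of 0.679. Stk11 did not overlap between genotypes in any population. Gpx4 fell in tumor cells (-0.53, adjusted p = 0.036) and had a log2 fold change of -0.68 in TRMs (adjusted p = 0.0697). In MDMs the Gpx4 difference was 0.76 (adjusted p = 0.679), on 93.6 and 97.7 RPKM with the KLG4 genotype and 44.9 and 71.3 with KL. Arhgap45, listed as Hmha1 and lying 25.5 kb from Sbno2 past Gpx4, rose in tumor cells from 16.2 and 22.6 RPKM to 38.3 and 37.2 (0.98, adjusted p = 0.011). Its KLG4 values were also the higher ones in TRMs (35.4 and 37.5 over 16.1 and 24.1) and MDMs (115 and 113 over 69.9 and 67.2), without passing the test. Polr2e, which lies between Gpx4 and Arhgap45, fell in KLG4 tumor cells (-0.65, adjusted p = 0.0125).

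Within 100 kb of Sbno2 lay 15 other protein-coding genes. In tumor cells 13 were tested, of which 3 rose (Stk11, Arhgap45 and Cbarp) and 4 fell (Gpx4, Polr2e, Cnn2 and 1600002K03Rik), where 20.6% of all genes rose and 19.6% fell. Their log2 fold changes ran from -1.14 to 1.25. None passed the test in TRMs or MDMs, where they ranged from -0.68 to 1.75 and from -0.57 to 1.49. None of them reached the value of Sbno2 in its population. Both KLG4 libraries were above both KL libraries for 5 of 13 neighbours in tumor cells (32.5% of all genes), 8 of 13 in TRMs (53.7%) and 10 of 12 in MDMs (25.4%), where their median was 0.64. They were below for 6, 3 and 1, where 42.2%, 8.95% and 19.1% of all genes were. Reads were counted without strand, so transcripts that ran from Gpx4 into the opposite strand of Sbno2 would be counted as Sbno2. This was not tested.

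**Figure D5:**
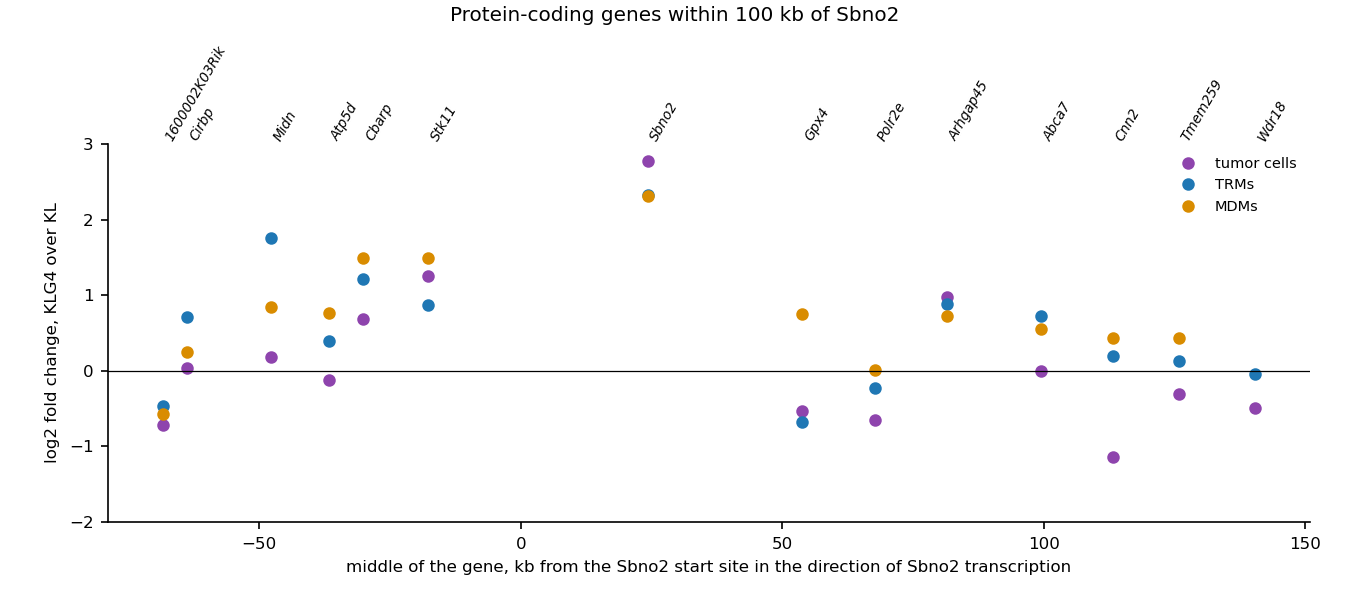
Log2 fold change (KLG4 over KL) of Sbno2 and the tested protein-coding genes within 100 kb, against the distance in kb of the middle of each gene from the Sbno2 start site, with positive distances in the direction of Sbno2 transcription. Sbno2 is the highest gene in each population, and Stk11, Cbarp, Arhgap45, Midn and Cirbp are above 0 in all 3.

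Genes whose pattern was most like that of Sbno2 were looked up among the 8975 genes over the 12 libraries, as Pearson correlations of log2(RPKM + 0.1). By level, Stk11 was first (0.96), followed by Abca1 (0.96), a cholesterol exporter, Gm45109 (0.95), Jmjd1c (0.95) and Gm13620 (0.95). After each population was centred on its own mean, Cd44 (0.98), an adhesion receptor, was first, followed by Arhgap45 (0.97), Smap2 (0.97), Gfm2 (0.97) and Stk11 (0.97). Of the axis, Il6ra was seventh (0.96) and Il10rb was at rank 38 (0.93) in the centred order, and Stat3 at rank 217 (0.88). Socs3 was at rank 2912 (0.46) and Gpx4 at -0.25. The 12 points share 3 tables, 2 genotypes and the scaling of each library, so these values describe the libraries only.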

How the data were processed

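Bulk RNA sequencing of 12 libraries was used, 2 for each of 6 groups read from the sample titles, and 5 further samples were not analysed here. Reads, according to the study's methods, came from a kit that keeps no strand and were trimmed (Trim Galore 0.6.4), aligned (HISAT2 2.0.5) and counted per gene (featureCounts 2.0.0), and the authors deposited RPKM values in a table for each population. Their own fold changes, p-values and related columns were not used. Depth was recovered from the steps of RPKM times gene length, which were whole to within 0.05 reads in 100% of values below 2000 reads. Gene length was given for tumor cells only and carried over by name. Only 17.4% to 32.5% of gene counts below 30 reads in a library were odd, so a fragment was often counted as a pair of reads, and reads without molecular identifiers are not independent molecules.

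Genes of at least 1 RPKM in at least 2 of 4 libraries were kept, and log2(RPKM + 0.1) of each table was fitted alone in limma 3.58.1 (R 4.3.3) with its trended variance and genotype as the only term. Tests were two-sided, with Benjamini-Hochberg adjustment over all genes of the table and a threshold of 0.05. Fold changes on this scale understate the change of low genes. The study's methods name a count model, and limma was used because the deposited unit is RPKM, with the recovered reads as an alternative. The fit was tested on simulated data. The members and lists were chosen with earlier results of these data known. Listed genes were named at an adjusted p under 0.05 and a log2 fold change past 1, at most 4 per list, direction and population, with Sbno1 and Il6st always. The 5 genes most like Sbno2, the top 5 by smallest change and protein-coding genes within 100 kb were also named. Lif, Il24, Ptgs2, Dcstamp and MDM values of listed genes were named after their values were seen. Coordinates are those of GRCm38 (GENCODE vM21), whose genes had the same start and end as the tumor cell table for 84.9% of 15919 genes. Alternatives were the pseudocount (1 and 0.01), the filter, quantile scaling, rescaling to reads outside mitochondrial genes, limma-voom on recovered reads, no trend, the replicate number as a block and leaving out each library. Alternatives for the rank of Sbno2 were chosen after seeing the data.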

Additional observations from a re-analysis of the deposited data

Results flagged for a closer look

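These are genes whose KLG4 libraries lay on opposite sides of the KL libraries in different populations, among the 8 genes of the axis and the named pathway genes, 34 in all. There were 12 such pairs of populations, in 8 genes. The differences were not tested, and each value is the log2 fold change in the first population minus that in the second.

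Socs3, the STAT3-induced inhibitor, differed by 1.21 between tumor cells and MDMs (0.84 and -0.37) and by 1.02 between TRMs and MDMs. Bcl3 differed by 0.86 between tumor cells and MDMs and by 1.67 between TRMs and MDMs, on a change of -0.08 in MDMs. The IL-11 receptor chain Il11ra1 differed by 2.59 between tumor cells and MDMs (1.54 and -1.05) and by 1.50 between TRMs and MDMs. Csf3r differed by 5.10 between tumor cells and TRMs (4.17 and -0.93) and by -1.40 between TRMs and MDMs. In TRMs the 5 listed neutrophil markers summed to 114 and 82.5 RPKM in KLG4 against 230 and 139 in KL, and their part was not tested. Ccl4 differed by 5.43 between tumor cells and TRMs and Clcf1 by -2.24, from -1.04 in tumor cells and 1.20 in TRMs. Il1b differed by 4.59 and Nfkbiz by 2.33 between tumor cells and MDMs. For Csf3r, Ccl4 and Il1b, which leukocytes express, the leukocyte markers were higher in KLG4 tumor cells, at 113 and 116 against 11.9 and 13.3 RPKM, and their part was not tested.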

How the results depend on the processing

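The log2 fold change of Sbno2 kept its direction under all alternatives run. It moved by more than the spread between replicates in TRMs with rescaling to reads outside mitochondrial genes (1.93) and with limma-voom (1.94), and in MDMs with the same rescaling (2.25). Leaving out a library gave 2.63 to 2.92 in tumor cells, 1.94 to 2.70 in TRMs and 2.28 to 2.34 in MDMs. Il10rb in TRMs turned to -0.15 with quantile scaling, -0.15 with that rescaling and -0.16 with limma-voom, each of which removes the shift of the median gene (0.38). No other gene of the axis whose genotypes did not overlap changed direction in the settings run, while the small MDM values changed sign for Il10 in some settings and without some libraries and for Il10ra without some libraries. Counts of calls were less stable. In tumor cells the 5543 calls became 3284 with a mean of at least 5 RPKM, where fewer genes were tested, and 1927 to 7372 without a library, and the 54 listed genes became 30 to 64. In TRMs the 198 calls became 490 and 122 with a pseudocount of 1 and 0.01, 120 with no filter, 557 with a mean of at least 5 RPKM, 60 with quantile scaling, 31 with rescaling, 760 with limma-voom, 12 with no trend and 113 to 2382 without a library. The 4 listed genes became 7, 0, 0, 9, 0, 0, 7 and 0 under the same 8 settings in that order, and 0 to 25 without a library. In MDMs the counts were 0 to 2682 over all genes and 0 to 20 in the lists without a library, with calls only without KL replicate 1. A lone library in a group was assumed to vary like the other group. The causes were not tested. The named pathway genes kept their side of the threshold in 218 fits under another setting and lost it in 23, and without a library kept it in 92 and lost it in 20. Sbno2 ranked first by its smallest change with a pseudocount of 1.

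Replicate numbers did not pair the libraries: deviations of same-numbered libraries correlated at 0.02 in tumor cells, -0.06 in TRMs and 0.05 in MDMs. With the replicate number as a block, the calls were 5388 in tumor cells, 470 in TRMs and 0 in MDMs, and those in the lists 52, 7 and 0.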

Other observations

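In MDMs the KL libraries differed from each other in some listed genes, in both directions. Cxcl10, an interferon-induced chemokine, was at 42.5 RPKM in KL replicate 1 and 5.31 in KL replicate 2, with 8.59 and 6.65 in KLG4, and Nos2, the inducible nitric oxide synthase, at 44.4 and 1.11 against 10.8 and 13.1 RPKM. Il1b was at 2450.2 and 3239 RPKM and Ptgs2 at 69.2 and 121 in KL replicates 1 and 2, so the higher value was in the other library. Sbno2 was at 69.3 and 67.8 RPKM in the same KL libraries. These genes were picked after their values were seen.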
